A study of Zea mays with 9 samples.

Results

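The gene thick aleurone1 (thk1) of maize is the gene that both mutants of the series carry lesions in, and its RNA was measured here in all 9 libraries. It encodes NOT1, the large scaffold protein of the CCR4-NOT complex. The gene model taken as thk1 is Zm00001d027278, 1 of 46430 gene identifiers in the count files and 1 of 23529 that had enough counts to be tested. It was chosen by that identifier and by no rule on measured values, though earlier results of these data were known. The labels, the files and the gene table used here do not pair the identifier with a name, so its identity as thk1 was not checked. The 29 identifiers whose numbers lie within 20 of it were examined as its context, and 17 of these were tested.

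Endosperm, the nutritive tissue of the kernel, was dissected 19 days after pollination (DAP) from self-pollinated field plants, and poly(A) RNA was sequenced. The groups were homozygous thk1-iso15, homozygous thk1-iso17 and WT, with 3 replicates each. All libraries carry the strain label B73, the inbred line in which both alleles are held, and the WT libraries are titled B73. The labels give neither the kind nor the position of either lesion, nor the number of kernels per replicate. Each allele is a single mutant stock, so what a stock carries beside its thk1 lesion and the lesion itself cannot be told apart.

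In eukaryotes the CCR4-NOT complex shortens the poly(A) tails of messenger RNAs, an early step in their decay. NOT1 holds the complex together: the CAF1 and CCR4 nucleases and the other NOT proteins dock on it. In the maize endosperm the aleurone is the outermost cell layer, and thk1 mutants are known for kernels with several aleurone layers in place of a single one. None of 44146 nuclear gene models could be named from the gene table used here. The other subunits of the complex and the markers of aleurone, starchy endosperm, basal transfer cells and embryo were therefore not analysed here, and the labelled tissue was not tested against its markers.

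Libraries held between 21871601 and 76651742 gene counts. The library thk1-iso17 replicate 3 stood apart in reads that did not align, which made up 8.27% of its entries, against 1.62% to 2.54% in the other 8 libraries. The fold changes of thk1 that use it are therefore given with and without it. The files give 1 count per gene model and library, so they do not show whether the RNA that was present was intact.

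RNA of thk1 was lower in both mutants, at about 26% of its WT level in each. Raw counts of the gene were 629, 1342 and 1137 in thk1-iso15 replicates 1, 2 and 3. They were 1933, 1158 and 2196 in thk1-iso17, and 1942, 4697 and 6839 in WT. Levels are given in CPM, a gene's count set against its library's total after TMM correction of that total. On this scale thk1 stood at 26.2, 32.2 and 25.1 CPM in thk1-iso15 replicates 1, 2 and 3. It stood at 21.5, 22.5 and 37.7 CPM in thk1-iso17, and at 93.6, 82.8 and 138 CPM in WT. All 6 mutant libraries thus lay below all 3 WT libraries, and the highest mutant value, 37.7 CPM, was 35.9% of the WT mean. The 2 alleles overlapped, with both thk1-iso15 extremes inside the range of thk1-iso17. That overlap rests on thk1-iso17 replicate 3. The other thk1-iso17 libraries, at 21.5 and 22.5 CPM, lay below all 3 thk1-iso15 libraries. The counts are from whole dissected endosperm, in which fewer cells that express the gene and less of its RNA per cell cannot be told apart.

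**Figure D1:**
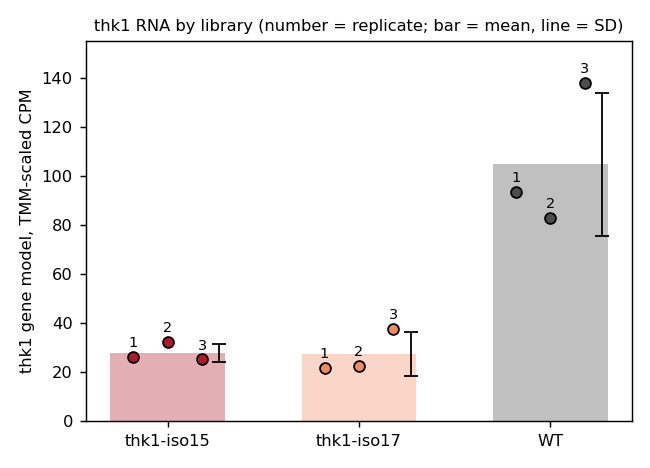
TMM-scaled CPM of the thk1 gene model (y axis) in thk1-iso15, thk1-iso17 and WT endosperm (x axis), with 1 point per library, its replicate number beside it, a bar for the mean and a line for the SD of 3 libraries. The 6 mutant libraries lie between 21.5 and 37.7 CPM, all below the 3 WT libraries at 82.8 to 138 CPM.

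In thk1-iso15 the gene averaged 27.8 ± 3.81 CPM, against 104.8 ± 29.3 CPM in WT (SD, n = 3 each). That is a log2 fold change of -1.91 with a SE of 0.25 and a 95% interval of -2.47 to -1.36 (edgeR quasi-likelihood test, adjusted p = 0.00211). On the linear scale thk1 was 3.77-fold lower than in WT, with an interval of 2.56- to 5.55-fold. The gene ranked 126 by p among the 23529 genes of that comparison, in which 15.5% of all genes passed the adjusted threshold of 0.05 and 6.82% passed as lower. The 3 thk1-iso15 libraries lay below the 3 WT libraries, as they did for 18.5% of all genes. Among the other lower genes, 11.6% had a fall at least as large as that of thk1.

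In thk1-iso17 the gene averaged 27.2 ± 9.06 CPM, against 104.8 ± 29.3 CPM in WT (SD, n = 3 each). The gene changed by -1.95 on the log2 scale, with a SE of 0.25 and a 95% interval of -2.50 to -1.39 (edgeR quasi-likelihood test, adjusted p = 0.00203). This is 3.85-fold lower with an interval of 2.62- to 5.67-fold. Its rank by p was 110. In this comparison 14.2% of all genes passed and 6.29% passed as lower, and 8.05% of the other lower genes fell at least as far. For 17.4% of all genes the thk1-iso17 libraries lay below WT without overlap, thk1 among them. Replicate 3 held the highest thk1 level of the 6 mutant libraries. Leaving it out moved the log2 fold change to -2.26, or 4.78-fold lower than in WT (SE 0.23, edgeR adjusted p = 0.00074). Both comparisons use the same 3 WT libraries, so their values do not support each other independently.

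**Figure D2:**
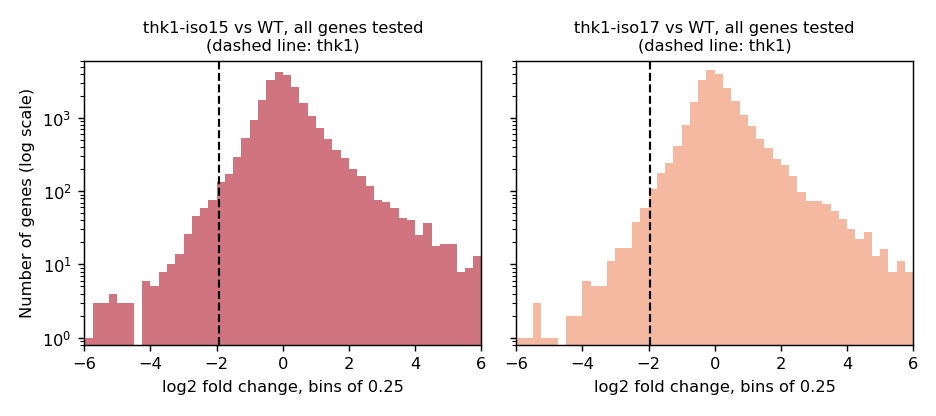
Number of genes (y axis, log scale) per bin of 0.25 in log2 fold change (x axis) over all 23529 genes tested, for thk1-iso15 against WT on the left and thk1-iso17 against WT on the right, with thk1 as a dashed line. The line falls at -1.91 and -1.95, in the lower tail, where 1.35% and 0.837% of the other genes had values as low. The axis leaves out 63 and 70 genes beyond 6 in either direction.

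With both alleles combined, thk1 averaged 27.5 ± 6.22 CPM in the mutants (SD, n = 6), against 104.8 ± 29.3 CPM in WT (SD, n = 3). On the log2 scale the change was -1.93, with a SE of 0.20 and a 95% interval of -2.38 to -1.48 (edgeR quasi-likelihood test, adjusted p = 0.000479). The fall was 3.81-fold, with an interval of 2.79- to 5.20-fold, and thk1 ranked 62 by p. Without thk1-iso17 replicate 3 the log2 value was -2.09 with a SE of 0.17 (edgeR adjusted p = 0.00014). With all libraries kept, 21% of all genes passed, 10% as lower, and 6.75% of the other lower genes fell at least as far as thk1. The mutants lay below WT in 6 of 6 libraries without overlap, as they did for 11.7% of all genes.

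A two-sided exact permutation test on log2 CPM of this gene alone gave p = 0.0119 for 6 mutant libraries against 3 WT libraries, the smallest value that this design allows. A gene can reach it only where mutants and WT do not overlap, so it restates that lack of overlap. Of all genes, 11.7% lay lower in the mutants without overlap and 12.4% higher. Adjusted over the 4 comparisons made with this test, the p of thk1 was 0.0476. For each allele alone against WT the exact p was 0.1, again the smallest that 3 libraries against 3 allow, and 0.133 after adjustment. Those designs cannot reach 0.05, and the calls for single alleles rest on the model across all genes.

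Between the alleles the level of thk1 did not differ beyond the spread between replicates. It averaged 27.8 CPM in thk1-iso15 and 27.2 CPM in thk1-iso17, a log2 difference of 0.031 (SE 0.25, edgeR adjusted p = 0.992). The 95% interval ran from -0.51 to 0.57, so a level in thk1-iso15 between 0.702 and 1.49 times that in thk1-iso17 is within the error. The exact permutation p was 0.9. In this comparison 0.111% of all genes passed, or 26 genes, with 1618 at an unadjusted p under 0.05. Without thk1-iso17 replicate 3 the difference was 0.34 (SE 0.21, edgeR adjusted p = 0.687).

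The depth was enough to count thk1 closely in every library. Counting error alone gave each library's share a 95% interval (exact binomial) of at most ±7.90% of its value, in thk1-iso15 replicate 1, and of ±2.38% in WT replicate 3. The coefficient of variation between replicates was 13.7% in thk1-iso15, 33.3% in thk1-iso17 and 27.9% in WT. In WT the spread came mostly from replicate 3, at 131.7% of the WT mean, with the other replicates at 89.3% and 79.0%. Leaving that library out gave the smallest falls of any library left out, with log2 fold changes of -1.67 in thk1-iso15 (edgeR adjusted p = 0.00818) and -1.70 in thk1-iso17 (edgeR adjusted p = 0.00805). The edgeR model gave thk1 a biological coefficient of variation of 0.222, against 0.283 as the common value over all genes.

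**Figure D3:**
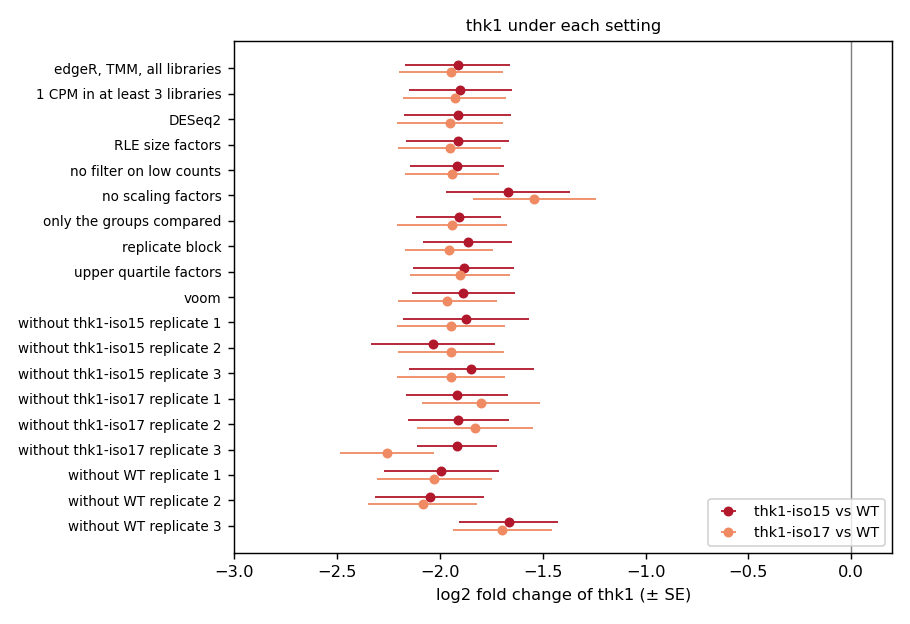
Log2 fold change of thk1 against WT with its SE (x axis) for thk1-iso15 and thk1-iso17 under each processing setting (y axis), the reported fit at the top. All values lie between -2.26 and -1.54, and the 2 settings nearest 0 are those without library scaling factors and without WT replicate 3.

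The scaling of libraries moved the size of the fall. Per total gene counts, with no scaling factors, thk1 stood at 28.8, 33.5 and 23.7 CPM in thk1-iso15 replicates 1, 2 and 3. It stood at 25.2, 23.2 and 45.7 CPM in thk1-iso17, and at 80.8, 65.0 and 128 CPM in WT. The groups again did not overlap. On this scale the median gene was itself shifted upwards, by 0.28 in thk1-iso15 and by 0.44 in thk1-iso17 on the log2 scale. The thk1 values were -1.67 and -1.54 (edgeR adjusted p = 0.0047 and 0.00456). Relative to the median gene they were -1.94 and -1.98, close to -1.93 and -1.97 with TMM factors. Scaling factors shift all genes of a library alike, so this closeness follows from the calculation and tests nothing.

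The genes with neighbouring identifiers show whether the fall was shared by the gene models numbered around thk1. Identifier numbers give an order of gene models, and no chromosome positions were used here. Of the 40 numbers within 20 of thk1, 29 occur in the files. The 12 identifiers among them that were not tested had at most 15 counts in any library, and 4 had 0 counts in all 9. The identifiers just before and just after thk1 are among these 12. The one before had 0 counts throughout. The one after had 6 counts over the 3 thk1-iso15 libraries, 9 over the 3 thk1-iso17 libraries and 0 over the 3 WT libraries, too few for a test.

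Among the 17 tested neighbours, changes ran in both directions. In thk1-iso15, 2 were higher and 2 lower than in WT, 4 in all (edgeR adjusted p under 0.05), which is 23.5% of the 17 genes, against 15.5% of all genes tested, 8.66% higher and 6.82% lower. In thk1-iso17, 1 was higher and 2 were lower, or 17.6%, against 14.2% of all genes, 7.96% higher and 6.29% lower. With both alleles combined, 2 were higher and 4 lower, or 35.3%, against 21% of all genes, 11% higher and 10% lower. The 17 genes had a median log2 fold change of -0.084 in thk1-iso15 and of 0.051 in thk1-iso17, against 0.012 and 0.025 over all genes tested. With 17 genes, 1 more or fewer call moves these shares by several percentage points. Between the alleles 0 of the 17 passed by edgeR, by DESeq2 or by voom, where 0.111%, 0.762% and 0.115% of all genes tested passed. At those shares a count of 0 among 17 genes says nothing particular about them. By edgeR 0 of the 17 had an unadjusted p under 0.05, where 1618 of the 23529 genes tested did. At that share, too, a count of 0 among 17 genes says nothing particular about them.

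**Figure D4:**
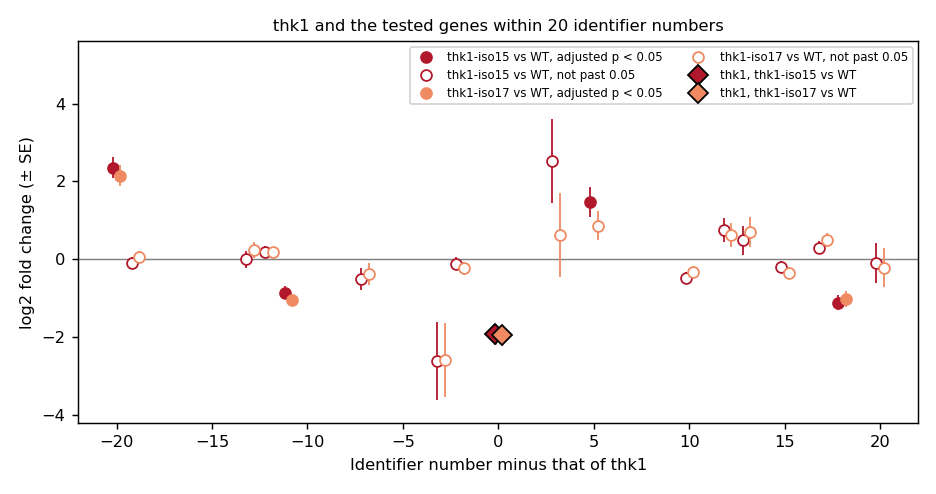
Log2 fold change against WT with its SE (y axis) for thk1 (diamonds) and the 17 tested genes with identifier numbers within 20 of it (circles, filled where adjusted p is under 0.05), by the difference in identifier number (x axis), in thk1-iso15 and thk1-iso17. The lowest circles, 3 numbers before thk1 at -2.60 and -2.59, have SEs of 0.998 and 0.954; genes on both sides lie near 0.

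The nearest tested neighbour, 2 numbers before thk1, passed in neither allele. It stood at 43.9, 47.2 and 31.4 CPM in thk1-iso15, at 41.3, 34.6 and 36.5 CPM in thk1-iso17, and at 48.6, 42.1 and 41.7 CPM in WT. In thk1-iso15 its log2 fold change came to -0.11 (SE 0.16, edgeR adjusted p = 0.679). In thk1-iso17 it came to -0.23 (SE 0.16, edgeR adjusted p = 0.364). Each thk1-iso17 library lay below each WT library, as for 17.4% of all genes, while thk1-iso15 overlapped with WT. The nearest tested neighbour on the other side, 3 numbers after thk1, had low counts. It had 0.912 ± 0.805 CPM in thk1-iso15, 0.242 ± 0.197 CPM in thk1-iso17 and 0.139 ± 0.196 CPM in WT (SD, n = 3 each). Its fitted log2 fold change in thk1-iso15, 2.53, was the highest of the 17 neighbours but had a SE of 1.08 and did not pass (edgeR adjusted p = 0.134, unadjusted p = 0.0391). In thk1-iso17 it was 0.62 with a SE of 1.08 (edgeR adjusted p = 0.74).

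A fitted fall as large as that of thk1 was found in 1.35% of all other genes tested in thk1-iso15, 0.837% in thk1-iso17 and 0.859% in both. Of the 17 neighbours, 1 had such a fall, the gene 3 numbers before thk1. Its levels were low, at 0.333, 0.192 and 0.0221 CPM in thk1-iso15, 0.0889, 0.0195 and 0.412 CPM in thk1-iso17, and 1.01, 0.582 and 1.55 CPM in WT. All 6 mutant libraries lay below the 3 WT libraries, as they did for 11.7% of all genes. The gene passed with both alleles combined (log2 fold change -2.60, SE 0.78, edgeR adjusted p = 0.0366) but in neither allele alone (adjusted p = 0.1 and 0.0918). It no longer passed when any 1 of WT replicates 1, 2 and 3 was left out (adjusted p = 0.0934, 0.0611 and 0.167), nor without thk1-iso15 replicate 2 or 3 (0.0689 and 0.0512) or thk1-iso17 replicate 1 (0.0827).

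Lower levels in both alleles were also found 11 numbers before and 18 numbers after thk1, and both falls were smaller than that of thk1. The gene 11 numbers before averaged 49.8 ± 2.42 CPM in thk1-iso15, 43.7 ± 9.12 CPM in thk1-iso17 and 90.0 ± 8.61 CPM in WT (SD, n = 3 each). Its log2 fold changes were -0.85 (SE 0.16, edgeR adjusted p = 0.0078) and -1.04 (SE 0.16, edgeR adjusted p = 0.00355). The gene 18 numbers after averaged 5.72 ± 0.999 CPM in thk1-iso15, 6.13 ± 0.984 CPM in thk1-iso17 and 12.4 ± 1.10 CPM in WT (SD, n = 3 each). It fell by 1.12 and by 1.02 on the log2 scale (edgeR adjusted p = 0.0063 and 0.00908). In both genes each mutant library lay below each WT library, as was the case for 11.7% of all genes.

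A further gene, 10 numbers after thk1, passed with both alleles combined by a small margin. It averaged 33.0 ± 4.02 CPM in thk1-iso15, 37.0 ± 5.06 CPM in thk1-iso17 and 46.1 ± 4.44 CPM in WT (SD, n = 3 each). The log2 fold change there was -0.40 with a SE of 0.13 (edgeR adjusted p = 0.0464). The groups overlapped, since thk1-iso17 replicate 1, at 42.8 CPM, lay above WT replicate 1, at 41.2 CPM. The call was lost under 5 of the 8 other settings and without any 1 of 7 of the 9 libraries.

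Genes that rose stood beside these. Zm00001d027258, 20 numbers before thk1, had 250.2, 180.5 and 112.6 CPM in thk1-iso15, 157, 163.8 and 151.7 CPM in thk1-iso17, and 35.8, 44.1 and 26.4 CPM in WT. Every mutant library was higher than every WT library, as was the case for 12.4% of all genes. The rise was 2.35 on the log2 scale in thk1-iso15 (SE 0.27, edgeR adjusted p = 0.00115). In thk1-iso17 it was 2.15 (SE 0.27, edgeR adjusted p = 0.00186). With both alleles combined the gene was 4.76-fold higher. No name or product is given for it here.

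The gene 5 numbers after thk1 was higher in thk1-iso15, at 21.9, 21.4 and 8.47 CPM. It had 13.5, 7.57 and 13.1 CPM in thk1-iso17 and 5.49, 8.78 and 4.40 CPM in WT, so each mutant group overlapped with WT. Its log2 fold change came to 1.46 in thk1-iso15 (SE 0.38, edgeR adjusted p = 0.0283). In thk1-iso17 it came to 0.87 and did not pass (SE 0.38, edgeR adjusted p = 0.148). With both alleles combined it was 1.16 and passed (SE 0.34, edgeR adjusted p = 0.035). The difference between the alleles, 0.60, did not pass (SE 0.37, edgeR adjusted p = 0.807). In thk1-iso15 the call was lost by voom (adjusted p = 0.0735). It was also lost when WT replicate 1 or 3 was left out (adjusted p = 0.101 and 0.104), and likewise for thk1-iso15 replicate 1 or 2 (0.0893 and 0.0943). With both alleles combined it was lost by voom (adjusted p = 0.0726) and in the same 4 left-out fits (0.129 and 0.145 for WT, 0.0649 and 0.066 for thk1-iso15), and also without thk1-iso17 replicate 1 (0.0706).

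**Figure D5:**
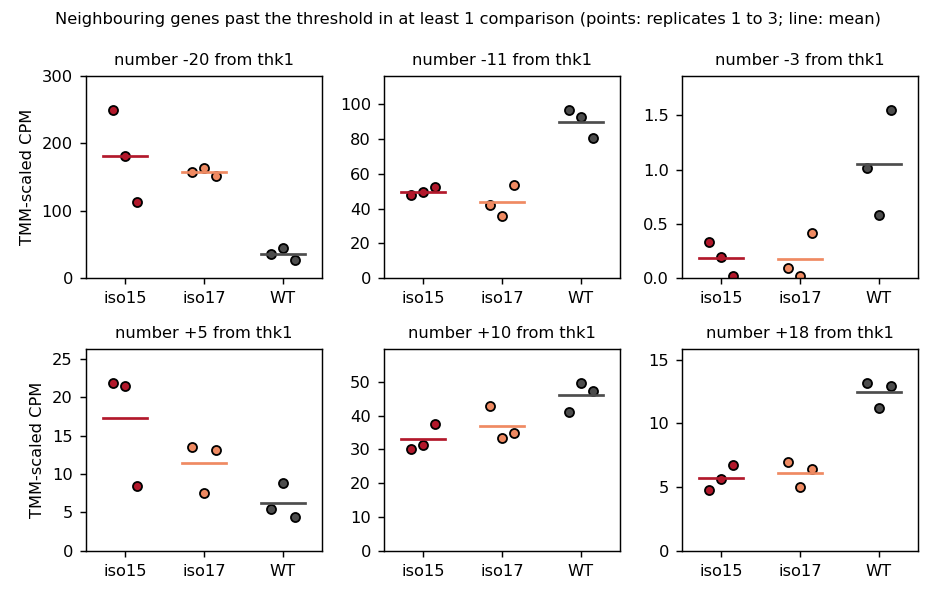
TMM-scaled CPM (y axes, each from 0) in thk1-iso15, thk1-iso17 and WT for the 6 neighbours that passed in at least 1 comparison, 1 panel per gene titled by its difference in identifier number from thk1, with a point per replicate and a line at the mean. The genes at -20 and +5 are higher in the mutants, and those at -11, -3, +10 and +18 are lower.

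The other 11 tested neighbours passed in no comparison. The gene 15 numbers after thk1 averaged 223 ± 22.1 CPM in thk1-iso15, 198 ± 33.2 CPM in thk1-iso17 and 254 ± 12.4 CPM in WT (SD, n = 3 each). All of its mutant libraries lay below WT, as for 11.7% of all genes. Its log2 fold change of -0.28 with both alleles combined did not pass (SE 0.13, edgeR adjusted p = 0.158). The gene 17 numbers after thk1 averaged 69.3 ± 14.4 CPM in thk1-iso15, 79.8 ± 9.94 CPM in thk1-iso17 and 56.4 ± 6.62 CPM in WT (SD, n = 3 each), and did not pass either (0.40, SE 0.15, edgeR adjusted p = 0.0844). The gene 19 numbers before it was nearly level over the groups, at 30.3 ± 4.54 CPM in thk1-iso15, 33.7 ± 4.10 CPM in thk1-iso17 and 32.5 ± 2.62 CPM in WT (SD, n = 3 each). Over a wider stretch of 40 numbers on each side, 37 genes were tested. Of these, 3 rose and 5 fell with both alleles combined, 21.6% in all, against 21% of all genes tested. The gene 3 numbers before thk1 remained the 1 gene with a fall as large as that of thk1, which 0.859% of all other genes tested had.

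Many genes varied over the libraries much as thk1 did. Likeness was taken as Pearson's r of log2 CPM with thk1 over the 9 libraries, among the 13792 other genes with a mean of at least 5 CPM. Of these, 549 genes, or 3.98%, had an r above 0.9, and 125 had an r above 0.95. The 9 libraries form 2 sets, mutant and WT, and the step between them makes up most of such an r, so the values are descriptions only. The highest r, 0.985, was that of Zm00001d044139, and the next, 0.984, that of Zm00001d049455.

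Zm00001d044139 had 20.6, 18.7 and 20.3 CPM in thk1-iso15, 17.5, 19.0 and 25.3 CPM in thk1-iso17, and 41.8, 38.1 and 55.7 CPM in WT. As for thk1, replicate 3 was the highest library in thk1-iso17 and in WT. Its log2 fold change with both alleles combined was -1.16 (SE 0.15), a smaller fall than that of thk1. Zm00001d049455 had 15.8, 17.0 and 14.1 CPM in thk1-iso15, 14.8, 15.3 and 20.8 CPM in thk1-iso17, and 29.4, 25.9 and 32.8 CPM in WT. Its log2 fold change was -0.85 (SE 0.14). Within the 6 mutant libraries alone, r with thk1 was 0.755 for Zm00001d044139 and 0.894 for Zm00001d049455. Both genes were picked by an r that includes these 6 libraries, so the choice itself favours high values here and a like order of replicates.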

How the data were processed

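Endosperm RNA libraries were made by TruSeq chemistry and read as pairs of 100 bases, per the labels' protocols. The values deposited by the authors are raw counts per gene identifier. HTSeq 0.11.1, StringTie 1.3.6, SAMtools 1.9 and HISAT2 2.1.0 are listed, with the build B73 RefGen_v4, per the submitters' processing notes. Their settings, the annotation and the use of strand were not given in the sources used here, so reads shared with overlapping, antisense or near-identical genes are uncertain. Selection on poly(A) may depend on tail length, which was not measured. The 5 summary lines were excluded throughout, and gene counts made up 52.9% to 66.5% of a library's entries.

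The analysis used edgeR 4.0.16 (R 4.3.3): filterByExpr, TMM factors and 1 quasi-likelihood model of 3 groups and 9 libraries. Calls needed an adjusted p under 0.05 (Benjamini-Hochberg, all tested genes). SEs are the fold change over the root of F, and intervals use the model's degrees of freedom. Log2 CPM for correlations and permutation tests used a prior count of 2. Binomial intervals cover counting error only. Replicates differed beyond sampling noise (chi-square per degree of freedom 38.2 to 151). Nothing says that they came from separate plants, so p-values measure the spread between these samples. The pipeline was tested on simulated data in which few genes changed. That test does not cover the scaling of libraries where many genes change, as here.

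Alternatives were RLE, upper quartile and no scaling factors, 2 other filters on low counts, DESeq2 1.42.0, voom in limma 3.58.1, a replicate block, fits of the compared groups alone, each library left out, and other windows of identifiers. The fit without scaling factors was chosen after seeing the data. The member, its window and the lists were chosen with earlier results of these data known. Neighbours called in any comparison were all described; of the 11 not called, the nearest on each side and a few others, chosen after their values were seen, are given with values, and the 2 genes with the highest r above 0.9 were named. RefSeq's gene table, which is of another assembly (Zm-B73-REFERENCE-NAM-5.0), named 0 nuclear gene models, and no coordinates were taken from it.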

Additional observations from a re-analysis of the deposited data

Results flagged for a closer look

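Among the 6 mutant libraries, 2 neighbours of thk1 had a single library far from the other 5, with a gap that took most of the whole range (Dixon's test). Chance flags about 1 in 20 such groups. The gene 3 numbers after thk1 had 1.83 CPM in thk1-iso15 replicate 1, against 0.056 to 0.58 CPM in the other 5 mutant libraries and at most 0.36 CPM in WT. The gene 13 numbers after thk1 had 6.18 CPM in thk1-iso15 replicate 3, against 13.8 to 17.7 CPM in the other 5 and 5.01 to 12.3 CPM in WT. Neither gene passed in any comparison. The 6 values of thk1 itself held no such gap.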

How the results depend on the processing

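Under all 18 alternatives for each allele and all 17 for both combined, thk1 stayed lower than WT and past the threshold. For each allele these include fits without a library of the other allele, in which the libraries compared stay the same. With 1 library left out the log2 fold change of thk1 ran from -2.05 to -1.67 in thk1-iso15 and from -2.26 to -1.70 in thk1-iso17. For both alleles combined thk1 ran from -2.09 to -1.68, and edgeR adjusted p was at most 0.0125 in all of these fits. Between the alleles its difference changed sign without scaling factors (-0.13) and without thk1-iso15 replicate 2 (-0.088), thk1-iso17 replicate 1 (-0.12) or thk1-iso17 replicate 2 (-0.082), from -0.12 to 0.34 with 1 library left out, and never passed. The cause was not tested. With the replicate block thk1 stood at -1.86 in thk1-iso15, -1.96 in thk1-iso17 and -1.91 in both. The labels do not say that equal numbers mark shared material. The r of deviations from group means had a median of 0.0912 over same-numbered pairs (-0.11 to 0.24, 3 of 9 above 0.1) and of -0.042 over differently numbered pairs (-0.23 to 0.12, 2 of 18 above 0.1). The single highest r was with the own number for 6 of 9 libraries, and 2 of 9 had it so in both other groups. Not every same-numbered pair was above 0.1, and the numbers were not taken as pairs, but these values do not exclude a weak pairing.

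With 1 library left out, the refitted counts of genes called were 1440 to 4386 in thk1-iso15 (3642 with all libraries), 1176 to 3946 in thk1-iso17 (3352), 2464 to 5876 in both (4943) and 21 to 72 between alleles (26). Between alleles the count was 197 by DESeq2, 75 with no filter on low counts and 17 with the compared groups alone. Without scaling factors 6053 were called in thk1-iso17, 5717 of them higher and 336 lower, against 1873 and 1479 with TMM. That setting gave 3769 higher and 560 lower in thk1-iso15, against 2038 and 1604 with TMM, and 6002 and 669 in both, against 2586 and 2357. By voom the splits in thk1-iso15, thk1-iso17 and both were 1404 and 1345, 1692 and 1721, and 2062 and 2358.

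Neighbours called numbered 3 to 6 in thk1-iso15, 3 to 4 in thk1-iso17 and 3 to 6 in both with 1 library left out, where 5.95% to 18.2%, 4.91% to 16.3% and 10.2% to 24.3% of all genes were called. Within 10 numbers they were 1, 0 and 3 of 6 genes tested, against 15.5%, 14.2% and 21% of all genes. In thk1-iso17 they were 6 of 37 within 40 numbers (16.2%) and 6 of 40 among the 20 nearest on each side (15%), against 14.2%. Without scaling factors they were 7 of 17, where 25.7% of all genes were called. Without these factors the gene 11 numbers before thk1 did not pass in thk1-iso15 (adjusted p = 0.0526), nor the gene 18 numbers after it in thk1-iso17 (0.0725), nor the genes 3 before and 10 after it in both (0.0548 and 0.773).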
